A study of Homo sapiens with 18 samples.

Results

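Tetraspanins are small surface proteins that cross the membrane 4 times, and the 30 genes of the family measured here are described across the arrays of a study on Snail and Twist. Members were taken by symbol: TSPAN followed by a number, or CD9, CD37, CD53, CD63, CD81, CD82, CD151, UPK1A or UPK1B. They make up 30 of the 18417 genes with a probe set of a single symbol, and each is read from the probe set with the highest mean over the arrays. The rule uses no measured value, and all 30 were tested because no filter on low values was applied.

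The study measured total RNA on 18 Affymetrix Human Gene 1.0 ST arrays from a pair of non-tumorigenic human breast epithelial lines, HMLE and MCF10A. There were 3 arrays each of HMLE with Snail, HMLE with Twist, HMLE with empty vector, MCF10A with Snail, MCF10A labelled as carrying Twist, and MCF10A with empty vector. HMLE cells were immortalised with telomerase and viral T antigens, so every HMLE group carries these, whereas MCF10A arose spontaneously. All groups were stable clones grown in medium with serum, and the labels give neither the number of clones behind a group nor whether its 3 samples came from separate cultures. A p-value here therefore reflects only how far samples vary within groups, as estimated over all groups together, and that variation may be technical. In bulk RNA, fewer cells of a type and less RNA per cell cannot be told apart.

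A tetraspanin has no enzyme activity of its own. It binds partner proteins, such as integrins, immunoglobulin superfamily members and proteases, and assembles them into patches of membrane called tetraspanin-enriched microdomains, through which it affects adhesion, migration, receptor trafficking and the release of vesicles. In breast and other epithelia CD9, CD82 and CD151 are best known for their ties to integrins and for the loss of CD9 and CD82 in metastatic tumours, and a subgroup called TspanC8 takes the protease ADAM10 to the cell surface.

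The labels were checked first against the introduced factors. SNAI1 stood between 12.41 and 12.54 on the log2 scale on the 6 Snail arrays of both lines, against 7.25 to 8.43 on the other 12. TWIST1 averaged 11.49 ± 0.14 in HMLE Twist and 10.99 ± 0.03 on the labelled MCF10A Twist arrays, against 9.69 ± 0.01 in HMLE vector and 10.07 ± 0.09 in MCF10A vector (SD, n = 3). It was also above vector on the Snail arrays, at 10.81 ± 0.04 in HMLE and 10.3 ± 0.07 in MCF10A, so it marked the Twist arrays less sharply than SNAI1 marked the Snail arrays. The methylthioadenosine phosphorylase gene MTAP, which lies in a part of chromosome 9 that MCF10A cells have lost, averaged 10.8 ± 0.03 on the labelled MCF10A Twist arrays, against 6.02 ± 0.15 in MCF10A Snail and 5.98 ± 0.36 in MCF10A vector. Since it was also at 10.26 ± 0.04 in HMLE vector, the labelled MCF10A Twist arrays go against their line label, and each value drawn from them below is that of arrays so labelled. The epithelial cadherin CDH1 stood at 6.62 in HMLE Snail and HMLE Twist, at 11.7 in MCF10A Snail and at 6.85 in the labelled MCF10A Twist arrays, against 12.27 in both vector groups.

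Changes below are log2 differences ± SE from limma over all 18417 genes. A gene counts as having risen or fallen where the Benjamini-Hochberg adjusted p is under 0.05, and it is also called at least 2-fold where the log2 difference reaches 1. Array values are log2 levels of a probe set and are compared between arrays, never between genes.

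With Snail in HMLE, 20 of the 30 tetraspanins changed, 9 up and 11 down, where 47.7% of all genes changed, 22.9% up and 24.8% down. At least 2-fold changes numbered 8, of which CD63 was the only rise, where 8.88% of all genes moved that far. With Twist in HMLE 16 changed, 6 up and 10 down, where 43.7% of all genes changed, 23.0% up and 20.7% down. Of these, 5 moved at least 2-fold, where 7.89% of all genes did.

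With Snail in MCF10A 13 changed, 2 up and 11 down, where 22.7% of all genes changed, 10.7% up and 12.0% down. TSPAN18 and TSPAN1 were the 2 that moved at least 2-fold, where 1.79% of all genes did. In the labelled MCF10A Twist arrays 18 changed against MCF10A vector, 8 up and 10 down, where 50.4% of all genes changed, 26.5% up and 23.9% down. Of these, 4 moved at least 2-fold, where 10.5% of all genes did. The median change of the 30 was -0.05, -0.04, -0.06 and 0.02 in these comparisons, beside -0.01, 0.02, -0.02 and 0.03 for all genes.

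**Figure D1:**
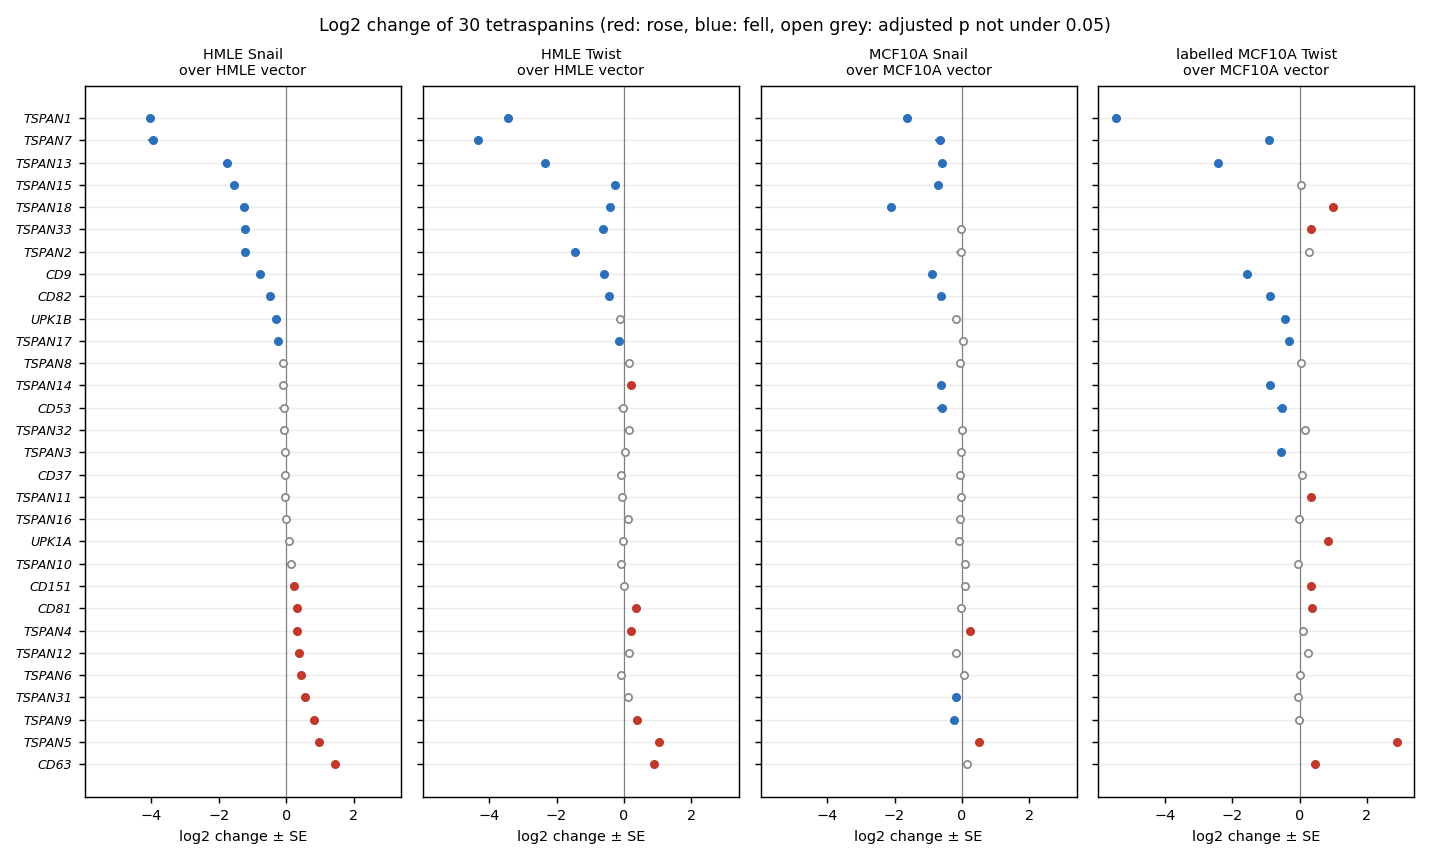
Log2 change against the vector arrays of the line given in the label, with SE bars, for the 30 tetraspanins in 4 comparisons. Filled points passed the adjusted p limit of 0.05. TSPAN1 and TSPAN7 lie farthest below 0 in both HMLE panels and TSPAN18 in the MCF10A Snail panel, and TSPAN5 lies above 0 in all 4.

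Of the 30, 5 fell in all 4 comparisons with vector, namely TSPAN1, TSPAN7, TSPAN13, CD9 and CD82, and TSPAN5 alone rose in all 4, where 4.05% of all genes fell and 3.34% rose in all 4. Another 5, CD37, TSPAN8, TSPAN10, TSPAN16 and TSPAN32, passed in none, where 31.4% of all genes did so. There were 5 more, TSPAN9, TSPAN14, TSPAN18, TSPAN31 and TSPAN33, that passed in both directions, as 15.6% of all genes did. The 2 comparisons in a line share their vector arrays, so a member's calls there are not independent of each other.

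TSPAN1, a tetraspanin of secretory epithelia, had the largest fall of the family in 2 of the 4 comparisons. Its level was 7.60, 7.94 and 7.67 on the HMLE Snail arrays and 8.43, 8.19 and 8.37 on the HMLE Twist arrays, against 11.80, 11.82 and 11.76 on the HMLE vector arrays. All 6 arrays with a factor lay far below vector, with changes of -4.05 ± 0.08 for Snail and -3.46 ± 0.08 for Twist, or 16.6-fold and 11-fold lower (limma adjusted p = 3.23e-16 and 1.92e-15). In MCF10A it read 10.69, 10.62 and 10.52 with Snail, against 12.30, 12.15 and 12.29 with vector. The change of -1.63 ± 0.08, or 3.1-fold lower, again left no overlap (adjusted p = 3.11e-10). The labelled MCF10A Twist arrays had the lowest TSPAN1 levels of all, 6.84, 6.76 and 6.73, a change of -5.47 ± 0.08 from MCF10A vector, or 44.3-fold lower (adjusted p = 7.51e-18).

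TSPAN7, known from nerve cells and mutated in a form of X-linked intellectual disability, was high on the HMLE vector arrays alone. It read 6.47, 6.43 and 6.48 with Snail and 6.2, 6.07 and 5.98 with Twist, against 10.52, 10.36 and 10.38 with vector in HMLE. The changes of -3.96 ± 0.13 with Snail and -4.34 ± 0.13 with Twist were 15.5-fold and 20.2-fold falls, with the Twist arrays lowest (adjusted p = 8.55e-14 and 2.71e-14). In MCF10A it read 6.86, 6.66 and 6.54 with Snail and 6.71, 6.34 and 6.29 on the labelled Twist arrays, against 7.58, 7.03 and 7.41 with vector. There the changes were -0.66 ± 0.13 with Snail and -0.90 ± 0.13 in the labelled Twist arrays (adjusted p = 0.00111 and 1.27e-05), and each group still lay below every vector array.

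TSPAN13 also fell in both lines, and in HMLE it was lower with Twist than with Snail. There its level was 7.86, 7.94 and 7.85 with Snail and 7.31, 7.24 and 7.32 with Twist, against 9.53, 9.79 and 9.58 with vector. The 3 groups did not overlap, with changes of -1.75 ± 0.07 for Snail and -2.35 ± 0.07 for Twist (adjusted p = 1.97e-12 and 4.36e-14). In MCF10A it stood at 8.70, 8.56 and 8.58 with Snail and at 6.63, 6.79 and 6.87 on the labelled Twist arrays, against 9.20, 9.22 and 9.20 with vector. Both groups lay clear of the vector arrays, by -0.59 ± 0.07 and -2.44 ± 0.07 (adjusted p = 1.1e-05 and 2.15e-14).

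CD9, an adhesion tetraspanin needed for the fusion of egg and sperm and a partner of the HB-EGF precursor, fell more modestly. Its levels in HMLE were 11.27, 11.30 and 11.19 with Snail and 11.46, 11.46 and 11.44 with Twist, against 12.02, 12.04 and 12.05 with vector. In MCF10A they were 11.29, 11.17 and 11.17 with Snail and 10.60, 10.50 and 10.52 on the labelled Twist arrays, against 12.08, 12.04 and 12.16 with vector. No group with a factor overlapped its vector arrays, and the largest change was -1.56 ± 0.05 in the labelled Twist arrays, or 2.94-fold lower (adjusted p = 1.02e-13). The other changes were -0.78 ± 0.05 in HMLE Snail, -0.59 ± 0.05 in HMLE Twist and -0.89 ± 0.05 in MCF10A Snail (adjusted p = 1.07e-09, 5.23e-08 and 1.74e-09).

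CD82, also called KAI1 and described as a suppressor of metastasis, fell by less than 2-fold in each comparison with the vector arrays of the labelled line. The changes were -0.48 ± 0.06 in HMLE Snail, -0.45 ± 0.06 in HMLE Twist, -0.61 ± 0.06 in MCF10A Snail and -0.89 ± 0.06 in the labelled MCF10A Twist arrays (adjusted p between 1.72e-09 and 1.14e-05). Its mean levels were 11.32 ± 0.06, 11.35 ± 0.10 and 11.80 ± 0.08 in HMLE Snail, Twist and vector, and 11.07 ± 0.04, 10.80 ± 0.04 and 11.69 ± 0.07 in MCF10A Snail, labelled Twist and vector (SD, n = 3).

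TSPAN5, a TspanC8 member that carries ADAM10 and is tied to Notch signalling, was the one member that rose in all 4 comparisons. In HMLE it read 12.16, 12.07 and 12.06 with Snail and 12.23, 12.07 and 12.17 with Twist, against 11.17, 11.13 and 11.06 with vector. The factors gave nearly equal rises, 0.98 ± 0.08 and 1.04 ± 0.08 (adjusted p = 1.05e-08 and 5.71e-09), and the Snail and Twist arrays overlapped each other. In MCF10A the levels were 8.83, 8.50 and 8.59 with Snail and 10.99, 11.05 and 11.06 on the labelled Twist arrays, against 8.16, 8.02 and 8.20 with vector. There it rose by 0.51 ± 0.08 with Snail (adjusted p = 9.14e-05). The labelled Twist arrays stood 2.90 ± 0.08 above MCF10A vector, or 7.47-fold (adjusted p = 5.44e-15), but they differed from HMLE vector by -0.09 ± 0.08 (adjusted p = 0.372). The vector arrays of the lines were themselves 2.99 ± 0.08 apart, so whether the rise in the labelled Twist arrays reflects Twist or the line cannot be told apart.

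The sequences just upstream of the start sites of the 6 members called in 1 direction throughout were read, because Snail and Twist bind E-boxes, short DNA motifs in promoters. RefSeq promoters of the GRCh38.p14 build matched 22 of the 30 members by symbol and 5 of these 6, which are printed as the 250 bases before the start site, 5′ to 3′ on the strand of the gene. Capitals mark CAGGTG, the E-box usually given for Snail, or CATCTG, one given for Twist, as found on either strand (CACCTG and CAGATG are their other strands).
TSPAN1, chr1:46174837-46175086, plus strand: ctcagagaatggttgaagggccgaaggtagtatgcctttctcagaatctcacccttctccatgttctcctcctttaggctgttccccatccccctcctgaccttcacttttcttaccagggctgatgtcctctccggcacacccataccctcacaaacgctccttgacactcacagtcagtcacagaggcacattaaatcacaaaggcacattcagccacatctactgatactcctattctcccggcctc
TSPAN13, chr7:16753505-16753754, plus strand: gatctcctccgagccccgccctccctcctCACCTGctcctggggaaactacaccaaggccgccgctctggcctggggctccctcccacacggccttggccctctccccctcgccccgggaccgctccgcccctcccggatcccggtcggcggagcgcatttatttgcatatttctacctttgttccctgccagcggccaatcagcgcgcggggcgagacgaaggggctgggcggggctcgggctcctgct
CD9, chr12:6199696-6199945, plus strand: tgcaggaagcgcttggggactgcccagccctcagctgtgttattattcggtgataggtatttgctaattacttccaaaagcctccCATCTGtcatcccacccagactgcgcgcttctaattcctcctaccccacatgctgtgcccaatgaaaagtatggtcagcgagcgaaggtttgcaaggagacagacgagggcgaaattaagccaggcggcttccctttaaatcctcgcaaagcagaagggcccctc
CD82, chr11:44565413-44565662, plus strand: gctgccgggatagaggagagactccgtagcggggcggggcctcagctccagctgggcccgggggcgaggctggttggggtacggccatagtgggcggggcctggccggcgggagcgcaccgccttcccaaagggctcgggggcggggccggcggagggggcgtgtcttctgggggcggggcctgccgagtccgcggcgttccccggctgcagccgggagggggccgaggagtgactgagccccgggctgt
TSPAN5, chr4:98658612-98658861, minus strand: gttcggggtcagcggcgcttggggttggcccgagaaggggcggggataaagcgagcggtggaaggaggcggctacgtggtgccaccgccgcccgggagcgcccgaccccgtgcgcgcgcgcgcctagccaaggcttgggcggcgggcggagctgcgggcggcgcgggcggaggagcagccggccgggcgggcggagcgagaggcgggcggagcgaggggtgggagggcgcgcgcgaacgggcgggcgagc

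The TSPAN13 window held CACCTG starting 221 bases before the start site, and the CD9 window held CATCTG starting 165 bases before it. TSPAN1, CD82 and TSPAN5 held neither motif in these letters. Over the 22 windows, 7 held CAGGTG on either strand (31.8%), beside 16.8% of the 14239 windows of measured genes, and 4 held CATCTG (18.2%), beside 9.68%. The 7 were CD53, TSPAN2, TSPAN10, TSPAN13, TSPAN16, TSPAN33 and UPK1B, of which TSPAN10 and TSPAN16 passed in no comparison with vector. In base composition the windows ranged widely, with 51.2% G and C in TSPAN1, 52.8% in CD9, 70% in TSPAN13, 77.2% in CD82 and 80% in TSPAN5, around a median of 59.8% for the 22 and 62.8% for all. A match is a run of letters, not a shown binding site.

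Among the widely expressed members that build the web at the surface, CD9 and CD82 fell while CD63, CD81 and CD151 rose or did not pass. CD63 marks late endosomes and exosomes and is the surface partner of the protease inhibitor TIMP1. In HMLE it read 12.15, 12.16 and 12.18 with Snail and 11.65, 11.63 and 11.59 with Twist, against 10.75, 10.75 and 10.65 with vector. The 3 HMLE groups were clearly stepped, 1.44 ± 0.05 above vector with Snail and 0.90 ± 0.05 with Twist (2.72-fold and 1.87-fold, adjusted p = 5.14e-13 and 2.83e-10). In MCF10A it stood at 10.90, 10.79 and 10.80 with Snail and at 11.09, 11.11 and 11.17 on the labelled Twist arrays, against 10.68, 10.60 and 10.77 with vector. The difference with Snail was 0.15 ± 0.05 and missed the limit (adjusted p = 0.0619), though it passed after median centring (adjusted p = 0.018) and without MCF10A vector replicate 3 (adjusted p = 0.0311). The labelled Twist arrays were 0.44 ± 0.05 above MCF10A vector (adjusted p = 2.11e-06).

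CD81, an entry receptor of hepatitis C virus, rose by 0.31 ± 0.05 in HMLE Snail, 0.37 ± 0.05 in HMLE Twist and 0.37 ± 0.05 in the labelled MCF10A Twist arrays (adjusted p = 9.2e-05, 1.97e-05 and 1.7e-05). In MCF10A Snail it differed by -0.03 ± 0.05 and overlapped vector (adjusted p = 0.779). CD151, the close partner of laminin-binding integrins, rose by 0.24 ± 0.05 in HMLE Snail and 0.33 ± 0.05 in the labelled MCF10A Twist arrays (adjusted p = 0.000398 and 1.35e-05). It differed by 0.01 ± 0.05 in HMLE Twist and 0.09 ± 0.05 in MCF10A Snail (adjusted p = 0.867 and 0.207). Its highest mean was 13.38 ± 0.04 in the labelled MCF10A Twist arrays and its lowest 13.05 ± 0.03 in MCF10A vector, the narrowest range of group means among these 5.

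**Figure D2:**
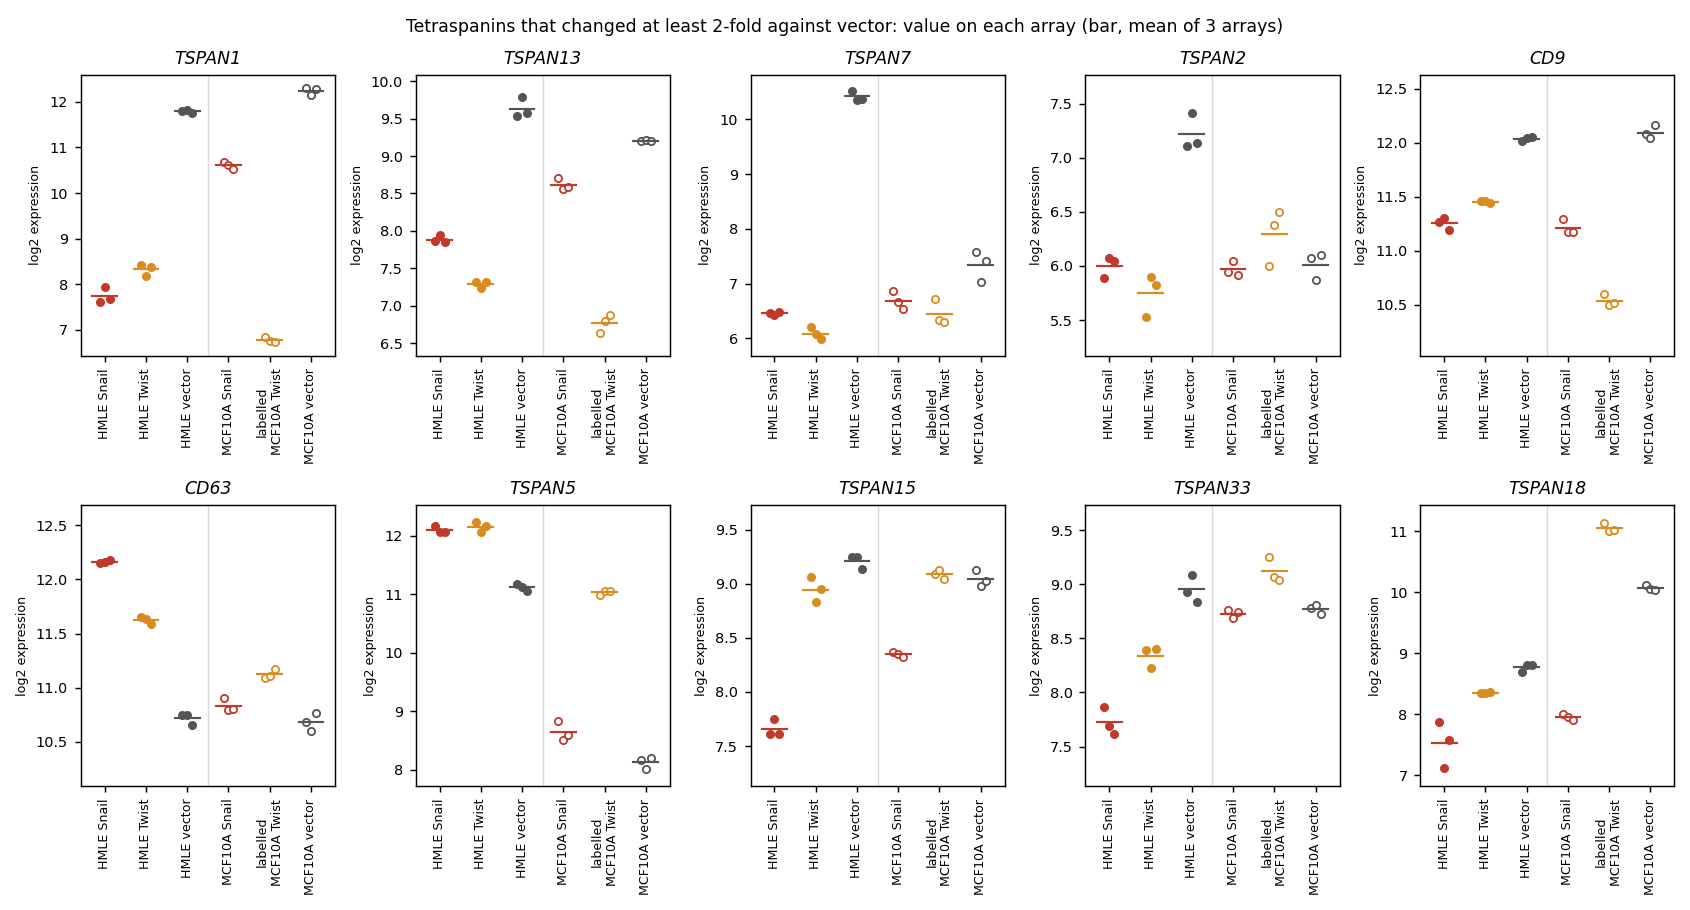
Log2 level on each of the 18 arrays for the tetraspanins that changed at least 2-fold in a comparison with vector, with group means as bars; groups run Snail, Twist and vector within HMLE and then within MCF10A. TSPAN1 and TSPAN13 are low on every HMLE array with a factor and on the labelled MCF10A Twist arrays, and TSPAN18 is highest on the labelled MCF10A Twist arrays.

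The TspanC8 members, which bring ADAM10 out of the endoplasmic reticulum and direct which substrates it cuts, went different ways. In HMLE Snail 3 of the 6 fell (TSPAN15, TSPAN17 and TSPAN33) and TSPAN5 rose, where 47.7% of all genes changed. In HMLE Twist the same 3 fell while TSPAN5 and TSPAN14 rose, where 43.7% of all genes changed. Of the 6, 1 rose and 2 fell in MCF10A Snail, where 22.7% of all genes changed. On the labelled MCF10A Twist arrays 2 rose and 2 fell against MCF10A vector, where 50.4% of all genes changed. TSPAN15, which promotes the cutting of N-cadherin by ADAM10, read 7.61, 7.75 and 7.61 with Snail and 9.06, 8.83 and 8.95 with Twist, against 9.25, 9.25 and 9.14 with vector in HMLE. The Snail arrays stood apart from both other groups, with a change of -1.55 ± 0.06 from vector, beside -0.26 ± 0.06 for the Twist arrays (adjusted p = 2.23e-12 and 0.00263). In MCF10A it stood at 8.37, 8.35 and 8.32 with Snail and at 9.09, 9.13 and 9.04 on the labelled Twist arrays, against 9.13, 8.98 and 9.03 with vector. TSPAN15 therefore fell with Snail in both lines, by 0.70 ± 0.06 in MCF10A (adjusted p = 4.66e-07), and the labelled Twist arrays overlapped vector (0.04 ± 0.06, adjusted p = 0.647).

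TSPAN33, known from blood cell precursors and activated B cells, had levels of 7.87, 7.69 and 7.62 with Snail and 8.39, 8.23 and 8.40 with Twist, against 8.93, 9.09 and 8.84 with vector in HMLE. The groups did not overlap, and the changes were -1.23 ± 0.08 and -0.62 ± 0.08 (adjusted p = 8e-10 and 5.12e-06). In MCF10A it read 8.76, 8.69 and 8.74 with Snail and 9.25, 9.07 and 9.04 on the labelled Twist arrays, against 8.78, 8.81 and 8.73 with vector. Snail did not separate from vector there (-0.04 ± 0.08, adjusted p = 0.791), and the labelled Twist arrays were 0.35 ± 0.08 higher (adjusted p = 0.00124).

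TSPAN14 was 0.22 ± 0.05 higher with Twist than with vector in HMLE (adjusted p = 0.00178). On the labelled MCF10A Twist arrays it differed from MCF10A vector by -0.88 ± 0.05 (adjusted p = 1.28e-10). From HMLE vector those arrays differed by only -0.26 ± 0.05 (adjusted p = 0.000271). TSPAN14 already differed between the vector groups, by -0.62 ± 0.05 as HMLE over MCF10A, and the part of the line in the -0.88 was not tested. With Snail it fell by 0.63 ± 0.05 in MCF10A (adjusted p = 8.44e-08) and differed by -0.09 ± 0.05 in HMLE (adjusted p = 0.163). TSPAN17 fell by 0.24 ± 0.06 in HMLE Snail and 0.32 ± 0.06 in the labelled MCF10A Twist arrays (adjusted p = 0.00172 and 9.19e-05). Its fall in HMLE Twist, 0.15 ± 0.06 with adjusted p = 0.0393, did not pass under 8 of 14 alternatives, at adjusted p up to 0.143, among them leaving out any of 5 arrays: each HMLE vector array and HMLE Twist replicates 2 and 3. TSPAN10, or oculospanin, named for its presence in pigment cells of the eye, passed in none, with mean levels between 7.83 ± 0.21 in HMLE Twist and 8.05 ± 0.06 in HMLE Snail.

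TSPAN18, an endothelial tetraspanin that acts on the calcium channel Orai1, fell in 3 comparisons with vector and rose in the labelled MCF10A Twist arrays. In HMLE it read 7.87, 7.12 and 7.57 with Snail and 8.34, 8.34 and 8.36 with Twist, against 8.69, 8.81 and 8.81 with vector. The Snail arrays scattered more than any other group of this gene (SD 0.38), yet all 3 lay below vector. The changes were -1.25 ± 0.12 for Snail and -0.42 ± 0.12 for Twist (adjusted p = 1.33e-07 and 0.00808). In MCF10A its levels were 8.0, 7.96 and 7.91 with Snail and 11.13, 11 and 11.01 on the labelled Twist arrays, against 10.11, 10.05 and 10.03 with vector. With Snail it changed by -2.11 ± 0.12, or 4.31-fold lower, the largest fall of the family in that comparison (adjusted p = 1.37e-09). The labelled Twist arrays were 0.98 ± 0.12 above MCF10A vector and 2.28 ± 0.12 above HMLE vector (adjusted p = 2.08e-06 and 5.52e-11), so for this gene they resembled neither vector group. The 10 endothelial markers had summed log2 levels of 65.4 to 66.9 on the labelled Twist arrays, against 66.2 to 67.9 in MCF10A vector and 65.6 to 67.0 in HMLE vector. Of the 10, PECAM1 (-0.95 ± 0.11) and KDR (-0.79 ± 0.10) were lower on the labelled Twist arrays than in MCF10A vector and the other 8 did not pass (adjusted p = 1.92e-06 and 4.35e-06 for those 2). In that comparison 23.9% of all genes fell.

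TSPAN2, known from the oligodendrocytes that make myelin, was a member with levels above the rest only in HMLE vector. It read 5.89, 6.07 and 6.05 with Snail and 5.53, 5.90 and 5.82 with Twist, against 7.11, 7.41 and 7.14 with vector in HMLE. The changes were -1.22 ± 0.12 and -1.46 ± 0.12, with no overlap (adjusted p = 2.42e-07 and 2.77e-08). In MCF10A the 3 groups overlapped, at 5.94, 6.05 and 5.92 with Snail and 6.0, 6.38 and 6.50 on the labelled Twist arrays, against 6.07, 5.87 and 6.10 with vector. The differences there were -0.04 ± 0.12 and 0.28 ± 0.12 (adjusted p = 0.867 and 0.0657), and the second passed without replicate 1 of the labelled Twist arrays, at 0.43 with adjusted p = 0.00443. Against HMLE vector the labelled Twist arrays differed in TSPAN2 by -0.92 ± 0.12 (adjusted p = 6.32e-06).

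Smaller changes were spread over other members. TSPAN9, a tetraspanin of platelets, rose by 0.84 ± 0.06 in HMLE Snail and 0.38 ± 0.06 in HMLE Twist (adjusted p = 4.02e-09 and 5.76e-05). In MCF10A Snail it fell by 0.23 ± 0.06 (adjusted p = 0.0129), a call that was lost without MCF10A vector replicate 2 or 3 or MCF10A Snail replicate 2, at adjusted p between 0.0566 and 0.0647. TSPAN31, amplified in sarcomas together with its neighbour CDK4, rose by 0.57 ± 0.05 in HMLE Snail (adjusted p = 6e-08). Its fall of 0.17 ± 0.05 in MCF10A Snail (adjusted p = 0.0263) was lost under 6 of 14 alternatives, at adjusted p up to 0.141, including without MCF10A vector replicate 1 or 3 or MCF10A Snail replicate 2 or 3.

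TSPAN4, a component of the migrasomes that trail behind moving cells, rose by 0.32 ± 0.05 in HMLE Snail, 0.21 ± 0.05 in HMLE Twist and 0.24 ± 0.05 in MCF10A Snail (adjusted p = 6.93e-05, 0.00351 and 0.00258). TSPAN6 rose by 0.45 ± 0.07 and TSPAN12, a part of Norrin and Frizzled-4 signalling, by 0.38 ± 0.11, both in HMLE Snail (adjusted p = 3.25e-05 and 0.00623). TSPAN3 fell by 0.57 ± 0.04 and TSPAN11 rose by 0.33 ± 0.10 in the labelled MCF10A Twist arrays (adjusted p = 6.5e-09 and 0.0126). Against HMLE vector the labelled arrays differed in TSPAN3 by -0.18 ± 0.04 (adjusted p = 0.00268).

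The uroplakins UPK1A and UPK1B, which form the plaques of the bladder lining, passed in 1 and 2 comparisons. UPK1A read 7.34, 7.21 and 7.24 on the labelled MCF10A Twist arrays, against 6.41, 6.38 and 6.49 in MCF10A vector, a clear separation of 0.84 ± 0.08 (adjusted p = 2.13e-07). UPK1B fell by 0.29 ± 0.08 in HMLE Snail and 0.43 ± 0.08 in the labelled MCF10A Twist arrays (adjusted p = 0.00508 and 0.000155).

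Of the blood cell tetraspanins, CD37 and TSPAN32 passed in none. CD53 read 6.05, 6.35 and 6.43 in MCF10A Snail and 6.16, 6.34 and 6.54 in the labelled Twist arrays, against 7.04, 6.83 and 6.75 in MCF10A vector. These groups lay below vector, at -0.60 ± 0.15 and -0.53 ± 0.15 (adjusted p = 0.00833 and 0.00708). Against HMLE vector the labelled Twist arrays differed in CD53 by -0.06 ± 0.15 and overlapped it (adjusted p = 0.788). Of 9 leukocyte markers measured, 3 fell in the same comparisons with MCF10A vector (CD14, LCP1 and LAPTM5), where 12.0% and 23.9% of all genes fell. The summed level of the 9 was 62.6 to 63.3 in MCF10A Snail and 59.3 to 60.6 in the labelled Twist arrays, against 66.2 to 67.1 in MCF10A vector. The same sum was 60.4 to 60.9 in HMLE vector. Against HMLE vector the labelled Twist arrays were 1.3 ± 0.11 higher in CD14 but lower in LCP1 (-1.68 ± 0.09) and LAPTM5 (-0.55 ± 0.09). PTPRC, the pan-leukocyte marker CD45, was at 4.76 ± 0.05 in MCF10A Snail, 4.62 ± 0.09 in the labelled Twist arrays and 4.61 ± 0.10 in MCF10A vector. The markers' part in the CD53 values was not tested. TSPAN8, the tumour antigen CO-029, had levels between 3.58 and 4.37 on all 18 arrays, and TSPAN16 between 5.24 and 5.77.

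The difference between the Snail effects in the lines was tested gene by gene. It passed for 16 of the 30 tetraspanins, 9 more positive and 7 more negative in HMLE than in MCF10A, where 40.2% of all genes passed, 19.9% more positive and 20.2% more negative. Of the 16, 7 differed by at least 2-fold, where 8.62% of all genes did. The 7 that were more negative in HMLE were TSPAN7 (-3.30 ± 0.18), TSPAN1 (-2.42 ± 0.12), TSPAN33 (-1.18 ± 0.11), TSPAN2 (-1.17 ± 0.17), TSPAN13 (-1.16 ± 0.10), TSPAN15 (-0.86 ± 0.09) and TSPAN17 (-0.28 ± 0.08). Of these 7, TSPAN7, TSPAN2, TSPAN13, TSPAN15 and TSPAN17 were higher in HMLE vector than in MCF10A vector, TSPAN1 was lower and TSPAN33 did not pass, and the part of these starting levels in the difference was not tested. The largest positive differences belonged to CD63 (1.3 ± 0.08), TSPAN9 (1.07 ± 0.09), TSPAN18 (0.86 ± 0.17) and TSPAN31 (0.74 ± 0.07). CD9 and CD82 fell with Snail in both lines, and their differences of 0.10 ± 0.07 and 0.14 ± 0.09 did not pass (adjusted p = 0.299 and 0.255).

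**Figure D3:**
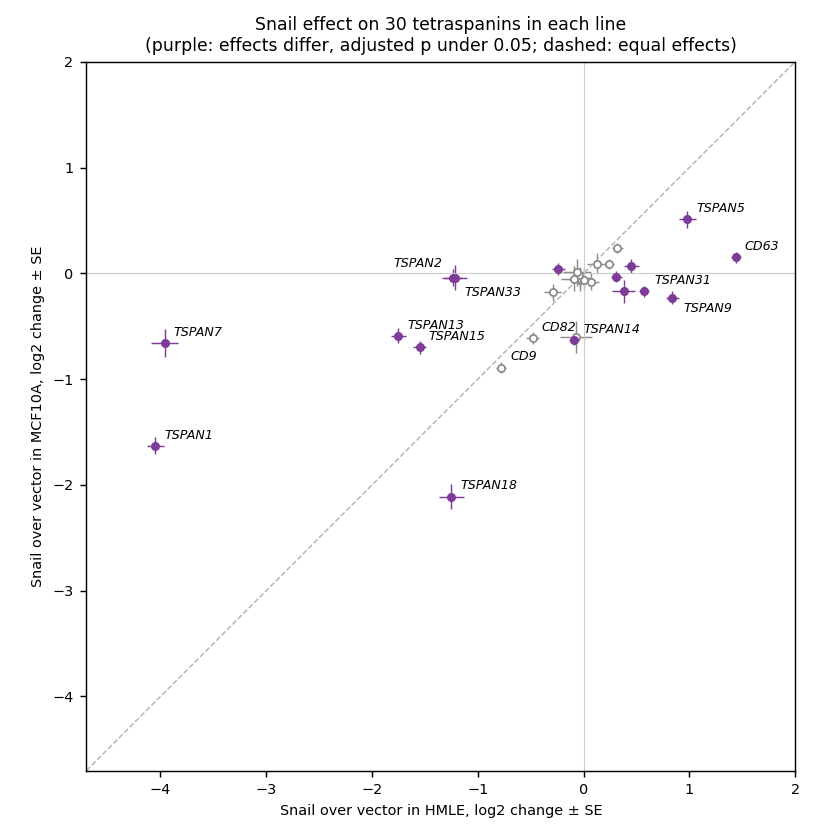
Snail effect in HMLE (horizontal axis) and in MCF10A (vertical axis) for each tetraspanin, as log2 change over the vector arrays of that line with SE bars; purple points are the 16 whose effects differed between the lines. TSPAN7 and TSPAN1 lie far left of the line of equal effects, TSPAN18 lies below it, and CD9 lies close to it.

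Marker genes of epithelial and mesenchymal cells also changed between these groups. All 9 mammary epithelial markers measured fell in HMLE Snail, with summed log2 levels of 78.3 to 78.4, against 114.0 to 114.3 in HMLE vector, and all 12 mesenchymal markers rose, with sums of 141.2 to 141.5, against 104.7 to 105.3. In HMLE Twist 9 of 9 epithelial markers fell and 11 of 12 mesenchymal markers rose, with sums of 70.8 to 72.2 and 141.3 to 142.3. In MCF10A Snail 4 epithelial markers fell and 2 rose, and 7 mesenchymal markers rose. Of all genes, 24.8% fell and 22.9% rose in HMLE Snail, 20.7% and 23.0% in HMLE Twist, and 12.0% and 10.7% in MCF10A Snail. The MCF10A epithelial sum was 103.9 to 104.7 with Snail and 70.9 to 71.5 on the labelled Twist arrays, against 106.1 to 106.5 with vector. The MCF10A mesenchymal sum was 109.7 to 110.8 with Snail and 135.2 to 135.6 on the labelled Twist arrays, against 103.4 to 104.3 with vector. The part of these markers in the tetraspanin values was not tested.

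Snail was set against Twist within HMLE to see which members told the factors apart. Of the 30, 13 differed, 7 higher and 6 lower with Snail, where 32.1% of all genes differed, 14.3% higher and 17.9% lower. TSPAN15 alone differed by at least 2-fold, where 2.82% of all genes did, at -1.29 ± 0.06 or 2.44-fold lower with Snail (adjusted p = 1.35e-10). TSPAN18 (-0.83 ± 0.12), TSPAN33 (-0.61 ± 0.08) and TSPAN1 (-0.59 ± 0.08) were also lower with Snail, and TSPAN13 (0.60 ± 0.07), CD63 (0.54 ± 0.05), TSPAN6 (0.53 ± 0.07), TSPAN31 (0.47 ± 0.05) and TSPAN9 (0.46 ± 0.06) were higher. TSPAN7 was 0.38 ± 0.13 higher with Snail (adjusted p = 0.0307), a call lost under 6 of 14 alternatives at adjusted p up to 0.111, including without any 1 HMLE Snail array or HMLE Twist replicate 2 or 3. CD9 was lower with Snail (-0.20 ± 0.05, adjusted p = 0.00693), which did not pass in a fit of these groups alone (adjusted p = 0.0585). TSPAN5 and CD82 did not pass, at -0.06 ± 0.08 and -0.03 ± 0.06 (adjusted p = 0.631 and 0.793).

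Before any factor was added, the share of the family that differed between the lines was close to that of all genes. Between HMLE vector and MCF10A vector 13 of the 30 differed, 6 higher and 7 lower in HMLE, where 44.0% of all genes differed, 23.4% higher and 20.6% lower. Of these, 4 differed at least 2-fold, where 6.35% of all genes did. TSPAN7 was 3.08 ± 0.13 and TSPAN5 2.99 ± 0.08 higher in HMLE, or 8.45-fold and 7.96-fold, and TSPAN2 was 1.2 ± 0.12 higher (adjusted p = 4.42e-12, 1.12e-14 and 3.57e-07). TSPAN18 was 2.45-fold lower in HMLE (-1.29 ± 0.12, adjusted p = 1.23e-07), and TSPAN14, TSPAN1 and TSPAN3 were lower too, at -0.62 ± 0.05, -0.45 ± 0.08 and -0.39 ± 0.04. CD9 and CD63 did not separate the lines, at -0.06 ± 0.05 and 0.03 ± 0.05 (adjusted p = 0.43 and 0.686). Calls near the limit were those of TSPAN15 (0.17 ± 0.06, adjusted p = 0.0458), TSPAN17 (0.17 ± 0.06, adjusted p = 0.0192) and CD53 (-0.47 ± 0.15, adjusted p = 0.0176). TSPAN15 did not pass under 8 of 14 alternatives, at adjusted p up to 0.167, including without HMLE vector replicate 1 or 2 or MCF10A vector replicate 2 or 3. TSPAN17 did not pass without HMLE vector replicate 3 or MCF10A vector replicate 2, at adjusted p up to 0.0634, and CD53 without replicate 1 of HMLE vector or of MCF10A vector, at adjusted p up to 0.0813.

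Against HMLE vector, the labelled MCF10A Twist arrays differed in 17 of the 30, 7 higher and 10 lower. Of all genes 49.2% differed, 25.2% higher and 24.0% lower. At least 2-fold differences numbered 5, where 9.00% of all genes moved that far. Of the 5, TSPAN18 was higher (2.28 ± 0.12) and TSPAN1, TSPAN7, TSPAN13 and CD9 were lower, while CD82 fell just short of the limit. TSPAN1 (-5.01 ± 0.08), TSPAN7 (-3.97 ± 0.13), TSPAN13 (-2.87 ± 0.07), CD9 (-1.5 ± 0.05) and CD82 (-1.0 ± 0.06) were lower there, as they were against MCF10A vector. The direction for these 5 genes, already named for falling in all 4 comparisons with vector, was the same whichever line's vector arrays were used. Of the 18 members called against MCF10A vector, 15 were called the same way against HMLE vector and 3 did not pass there, namely TSPAN5, TSPAN33 and CD53 (adjusted p = 0.372, 0.0966 and 0.788). TSPAN2 (-0.92 ± 0.12) and TSPAN4 (0.27 ± 0.05) passed against HMLE vector only (adjusted p = 6.32e-06 and 0.000359). Both comparisons use the same labelled Twist arrays, so these calls are not independent. The share of all genes that kept their call was not counted. TSPAN33 did pass against HMLE vector after median centring (adjusted p = 0.043) and without HMLE vector replicate 2 (adjusted p = 0.029). TSPAN11 was 0.33 ± 0.10 higher (adjusted p = 0.0132), which was lost without HMLE vector replicate 1 or 2, at adjusted p = 0.0529 and 0.0545.

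Some members are neighbours on chromosome 11. CD82 lies next to TSPAN18, TSPAN32 next to CD81, and CD151 and TSPAN4 have only the RNA polymerase subunit gene POLR2L between them. The neighbours CD82 and TSPAN18 both fell in HMLE Snail, HMLE Twist and MCF10A Snail but went opposite ways in the labelled MCF10A Twist arrays, at -0.89 ± 0.06 and 0.98 ± 0.12. CD151 and TSPAN4 both rose in HMLE Snail, by 0.24 ± 0.05 and 0.32 ± 0.05, and in the other comparisons with vector at most 1 of them passed.

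Proteins that tetraspanins bind were set beside the family, of which 25 of 28 listed genes were measured. In HMLE Snail 6 rose and 11 fell, in HMLE Twist 6 rose and 15 fell, in MCF10A Snail 3 rose and 12 fell, and in the labelled MCF10A Twist arrays 3 rose and 14 fell, with median changes of -0.16, -0.32, -0.17 and -0.19. That is 68.0%, 84.0%, 60.0% and 68.0% of the partners called, where 47.7%, 43.7%, 22.7% and 50.4% of all genes were, and the medians of all genes were -0.01, 0.02, -0.02 and 0.03. The list was chosen with earlier results of these data known, so these shares are not a test of the partners. EPCAM, an epithelial adhesion protein found in complexes with tetraspanins and claudin-7, fell in all of them, with changes of -5.72 ± 0.11, -5.94 ± 0.11, -1.65 ± 0.11 and -5.51 ± 0.11. The tight junction protein CLDN7 changed by -1.93 ± 0.09, -1.73 ± 0.09, -0.90 ± 0.09 and -5.03 ± 0.09 in the same order. CLDN7 differed between the vector groups by -3.46 ± 0.09 as HMLE over MCF10A, and against HMLE vector the labelled Twist arrays changed by -1.57 ± 0.09, or 2.98-fold lower. HBEGF, the growth factor whose membrane precursor CD9 binds, also fell in all 4, with changes of -1.13 ± 0.10, -1.79 ± 0.10, -1.53 ± 0.10 and -1.09 ± 0.10.

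**Figure D4:**
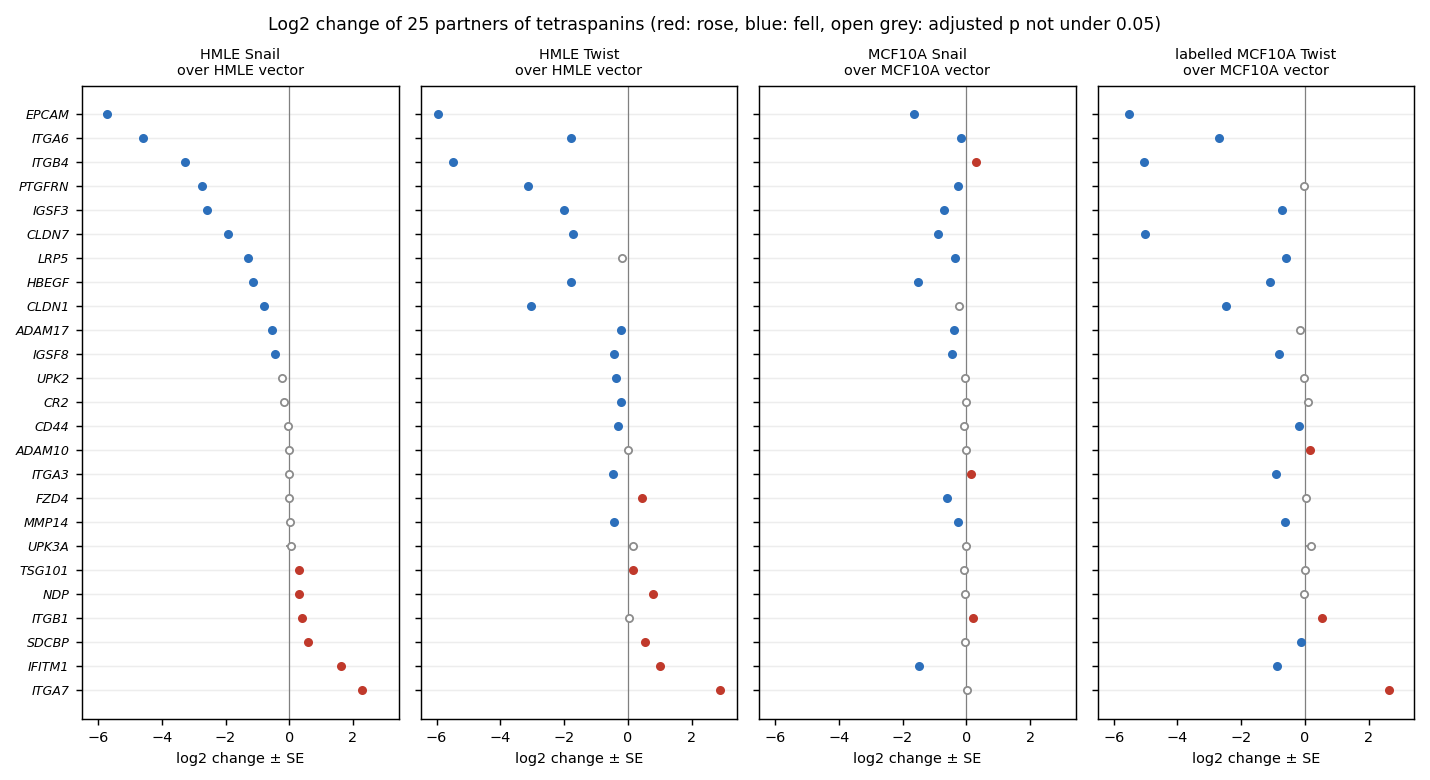
Log2 change against the vector arrays of the line given in the label, with SE bars, for the 25 measured partners of tetraspanins in 4 comparisons. Filled points passed the adjusted p limit of 0.05. EPCAM lies far below 0 in each panel, and ITGA7 rose in all but MCF10A Snail.

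ITGA6 and ITGB4 form an integrin that binds CD151 and anchors epithelial cells to laminin. ITGA6 stood at 8.73 ± 0.05 in HMLE Snail and 11.55 ± 0.08 in HMLE Twist, against 13.32 ± 0.01 in HMLE vector (SD, n = 3). The changes were -4.60 ± 0.05 and -1.78 ± 0.05, so the gene was lower with Snail than with Twist, by -2.82 ± 0.05. Over MCF10A vector ITGA6 changed by -0.17 ± 0.05 with Snail and -2.71 ± 0.05 in the labelled Twist arrays. ITGB4 changed by -3.26 ± 0.07 in HMLE Snail, -5.49 ± 0.07 in HMLE Twist and -5.05 ± 0.07 in the labelled MCF10A Twist arrays, whereas it rose by 0.29 ± 0.07 in MCF10A Snail (adjusted p = 0.00705). It was 2.23 ± 0.07 higher with Snail than with Twist in HMLE. ITGA7, the laminin receptor chain of muscle, rose by 2.27 ± 0.08 in HMLE Snail, 2.90 ± 0.08 in HMLE Twist and 2.63 ± 0.08 in the labelled MCF10A Twist arrays.

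PTGFRN and IGSF3, immunoglobulin superfamily proteins of which PTGFRN is a direct partner of CD9 and CD81, fell in HMLE, with changes of -2.73 ± 0.07 and -2.58 ± 0.10 for Snail and -3.12 ± 0.07 and -1.99 ± 0.10 for Twist. They also fell in MCF10A Snail, by less (-0.27 ± 0.07 and -0.69 ± 0.10). On the labelled MCF10A Twist arrays IGSF3 fell (-0.71 ± 0.10) and PTGFRN did not pass (-0.02 ± 0.07). IFITM1, an antiviral membrane protein found with CD81, rose in HMLE by 1.61 ± 0.09 with Snail and 1.01 ± 0.09 with Twist, but fell in MCF10A with Snail (-1.5 ± 0.09). The labelled Twist arrays differed in IFITM1 by -0.88 ± 0.09 from MCF10A vector and by 2.43 ± 0.09 from HMLE vector. ADAM10, the protease that TspanC8 members carry, differed from vector by 0.01 ± 0.04 in HMLE Twist and 0.16 ± 0.04 in the labelled MCF10A Twist arrays (adjusted p = 0.835 and 0.00432), and was picked out after its values were seen. Its mean level was 12.44 ± 0.02 in HMLE Snail and 12.44 ± 0.02 in HMLE vector, where TSPAN5 rose and TSPAN15 and TSPAN33 fell.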

How the data were processed

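The authors deposited log2 expression values of 33297 probe sets on 18 arrays, made with RMA per the submitters' processing notes. RMA corrects background, normalizes by quantiles and summarises probes, and it compresses differences of dim genes. Its version is not given in the sources used here, and the scale was inferred from the range of values. Array medians lay between 7.698 and 7.793 and replicate correlations between 0.99 and 0.997. With 3 arrays a group, precision is limited by their number.

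Groups came from the sample titles. The platform annotation gave 19460 probe sets 1 symbol, 1754 several and 12083 none listed; 19429 matched the GRCh38.p14 gene table by gene ID. For 769 genes with over 1 probe set, TSPAN11 alone among the members, the probe set with the highest mean was used. Of 31 symbols in that gene table that meet the rule, TSPAN19 was not analysed here.

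Differences were tested with limma 3.58.1 in R 4.3.3, as 6 group means over all arrays with 12 residual degrees of freedom and Benjamini-Hochberg adjustment over 18417 genes. Members and lists were chosen with earlier results of these data known. Every member may be named; those at least 2-fold in a comparison with vector are given array by array, and up to 8 partners per comparison by size. CD53 and UPK1A array values, ADAM10, smaller changes of named partners and the named leukocyte and endothelial markers were added after their values were seen. Alternatives covered normalization, centring, variance models, probe set averaging, a filter on the dimmest 25% of genes, fits of fewer groups, replicate blocks, thresholds and each array left out. For HMLE Snail against vector with 18417 genes, tested on simulated data, the fit called 84% of genes given a log2 change of 0.5 and 100% of those given 1. There 50 genes were given each size of change and most genes none. In the data 47.7% of genes were called, so these shares do not carry over to the real comparison. Figures were drawn with matplotlib 3.10.9.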

Additional observations from a re-analysis of the deposited data

Results flagged for a closer look

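The effect of Snail over vector differed between the lines for 16 tetraspanins, by a test of the difference itself in limma with adjusted p under 0.05. As HMLE minus MCF10A on the log2 scale, the differences below 0 were -3.3 for TSPAN7, -2.42 for TSPAN1, -1.18 for TSPAN33, -1.17 for TSPAN2, -1.16 for TSPAN13, -0.86 for TSPAN15 and -0.28 for TSPAN17. Those above 0 were 1.3 for CD63, 1.07 for TSPAN9, 0.86 for TSPAN18, 0.74 for TSPAN31, 0.55 for TSPAN12, 0.54 for TSPAN14, 0.46 for TSPAN5, 0.37 for TSPAN6 and 0.34 for CD81.

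For TSPAN14, TSPAN18 and TSPAN33, all HMLE Twist arrays lay to the same side of the HMLE vector arrays. All arrays labelled MCF10A Twist lay to the opposite side of the MCF10A vector arrays. The changes were 0.22 in HMLE Twist and -0.88 in the labelled MCF10A Twist arrays for TSPAN14, -0.42 and 0.98 for TSPAN18, and -0.62 and 0.35 for TSPAN33. These differences between lines were not tested, and since MTAP and the other 9p21 genes of the labelled MCF10A Twist arrays go against their line label, factor and line cannot be told apart in them.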

How the results depend on the processing

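Over all alternatives with a value, 3336 of 3416 changes of tetraspanins stayed on the same side of the adjusted p limit, 38 lost the call and 42 gained it. Among changes called in the main fit or the alternative, 0 reversed direction. Direction was not followed for changes called in neither. Requiring also a 2-fold change left 8 of 20 members in HMLE Snail, 5 of 16 in HMLE Twist, 2 of 13 in MCF10A Snail and 4 of 18 in the labelled MCF10A Twist arrays, each against vector. It left 1 of 13 for HMLE Snail over HMLE Twist, 4 of 13 between the vector groups, 5 of 17 for labelled MCF10A Twist over HMLE vector and 7 of 16 for the difference of Snail effects. Every other alternative kept each of these counts within 1.5 times. With 1 array left out at a time, the counts ranged from 20 to 20, 15 to 18, 11 to 13, 18 to 19, 12 to 15, 11 to 15, 16 to 18 and 16 to 17 in the same order. The replicate numbers were taken not to pair samples, since the correlations of deviations by number were over 0.1 for all 3 numbers in none of the pairs of groups compared (-0.24, -0.52 and 0.03 between HMLE Twist and HMLE vector). With the replicate block the counts were 20, 16, 13, 19, 13, 13, 17 and 17. Leaving out the dimmest 25% of genes kept 22 of the 30 members, so the other 8 have no value there. Those 8 are CD37, CD53, TSPAN2, TSPAN8, TSPAN12, TSPAN16, UPK1A and UPK1B. Dim members limit what can be seen, because RMA compresses their changes and no detection calls were used.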
